A study of Sus scrofa with 24 samples.

Results

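The Toll-like receptors with CD14 and CD180 were followed in peripheral blood mononuclear cells (PBMNCs) of pigs through every probe set that the array's annotation named CD14, CD180 or TLR and a number. This rule found 14 of 24123 probe sets, which read 8 of the 6765 genes that the annotation names alone on a probe set: TLR1, TLR2, TLR4, TLR6, TLR8, TLR9, CD14 and CD180. All 8 genes matched the RefSeq gene table for the pig assembly Sscrofa11.1 by gene ID. That table lists 10 Toll-like receptor genes, and TLR3, TLR5, TLR7 and TLR10 were not analysed here. TLR4 had 5 probe sets, CD14 and TLR1 had 2 each, and each other gene had 1, so probe sets of 1 gene are not independent measures. Sets of 1 gene are lettered below by falling mean signal (TLR4-a to TLR4-e, CD14-a and CD14-b), a naming that says nothing of abundance, and the plots give the array's own identifiers.

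The study asked what a fat-rich diet, and low doses of grape extract and resveratrol taken with it, do to gene expression in these cells. PBMNCs were isolated by density gradient from 24 pigs, 4 per diet with 2 females and 2 males each, and 1 Affymetrix array was run per animal. The atherogenic diet, which held cholic acid at 1%, coconut oil at 10% and beef tallow at 5.5%, was given for 4 months with grape extract (AD-GE), with a grape extract enriched in resveratrol (AD-GE-RES), with resveratrol (AD-RES) or alone (AD). Standard pig chow was given for the same time with the resveratrol-enriched extract (CT-GE-RES) or alone (CT). The dose for a body weight of 70 kg was 1 g of grape extract, and 18 mg of resveratrol, a stilbene that grape skin holds. The labels do not give the age or breed of the animals. Values below are log2 intensities, on which a difference of 1 is a 2-fold change. Where the values of a group are listed, the 2 females precede the 2 males.

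Toll-like receptors are membrane proteins that recognise molecules of microbes and start an inflammatory response through adaptors such as MYD88, ending in NF-kB and interferon regulatory factors. TLR4 reads bacterial endotoxin together with its partner LY96 (MD-2) and with CD14, which hands the lipid over, while TLR2 reads bacterial lipoproteins in pairs with TLR1 or TLR6. TLR8 and TLR9 sit in endosomes, where TLR8 reads RNA and TLR9 reads DNA with unmethylated CpG. CD180 is a relative of TLR4 that lacks the signalling domain, pairs with LY86 (MD-1) and is known in human and mouse from B cells, monocytes and dendritic cells. These roles are known mainly from human and mouse. In blood, TLR2, TLR4, TLR8 and CD14 are typical of monocytes, so fewer monocytes and less RNA per monocyte cannot be told apart in these samples.

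Arrays differed in the 3'/5' ratio, which compares the 3' with the 5' ends of 3 control transcripts (GAPDH, actin and EF1A) on the log2 scale and tends to be higher where RNA is more degraded. It ran from 1.37 to 4.39 over the 24 arrays. Group means were 2.46 ± 0.82 for AD-GE, 2.69 ± 1.24 for AD-GE-RES pigs, 1.92 ± 0.23 for AD-RES, 2.19 ± 0.87 for AD, 2.20 ± 0.89 for CT-GE-RES and 3.15 ± 1.13 for CT (SD, n = 4 each). The second male of CT had the highest ratio and stood apart in other measures. It correlated least with the others on average (r 0.973 over all probe sets), and it had the highest means of 8 neutrophil markers (1.83 above the mean of all arrays) and 6 erythroid markers (1.90 above), and the lowest mean of 13 T cell markers (−1.10). Of 20 monocyte markers 16 were measured above the low-signal limit, and their mean on each array was taken relative to all arrays. This monocyte mean was −0.23 ± 0.19 in AD-GE pigs, −0.04 ± 0.41 in AD-GE-RES pigs, −0.16 ± 0.58 in AD-RES, 0.28 ± 0.13 in AD, −0.06 ± 0.37 in CT-GE-RES and 0.21 ± 0.24 in CT.

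Of the 14 probe sets 12 passed the filter on low signal (mean log2 intensity of at least 3.57) and were tested with limma among 17999 probe sets. No member passed an adjusted p of 0.05 in any of the study's 5 comparisons, and neither did any other probe set (0% called). Unadjusted p-values under 0.05 were found for 3 of 12 members in AD-GE against AD (6.09% of all probe sets), 0 in AD-GE-RES against AD (2.4%), 2 in AD-RES against AD (4.45%), 1 in AD against CT (6.38%) and 0 in CT-GE-RES against CT (6.8%). The animals of the compared groups did not overlap for 3 members in AD-GE against AD (4.72% of all), 0 in AD-GE-RES against AD (1.26%), 2 in AD-RES against AD (2.81%), 1 in AD against CT (2.74%) and 2 in CT-GE-RES against CT (4.03%).

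The members' differences, though none was called, lay mostly on 1 side of 0 in the supplement comparisons. In AD-GE against AD 11 of the 12 members were lower (48.6% of all probe sets), with a median difference of −0.38 over the members and 0.007 over all. In AD-GE-RES against AD all 12 were lower (47.6% of all), with medians of −0.30 and 0.009. In AD-RES against AD 10 were lower (50.6% of all), with medians of −0.23 and −0.002. These comparisons share the 4 AD animals, and 8 of the 12 probe sets belong to TLR4, CD14 or TLR2. In AD against CT 3 members were lower (49.6% of all; median 0.10), and in CT-GE-RES against CT 7 were lower (47.7% of all; median −0.21). The effect of the enriched extract was called as different between the diets for no member (0 called and 0 at an unadjusted p under 0.05, beside 3.12% of all). In an F test over the 6 diets CD180, 1 TLR4 probe set and TLR2 had unadjusted p-values of 0.0014, 0.026 and 0.029. These were the only 3 of the 12 members under 0.05 (9.16% of all), so the other TLR4 sets were not. The smallest adjusted p of a member was 0.302.

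**Figure D1:**
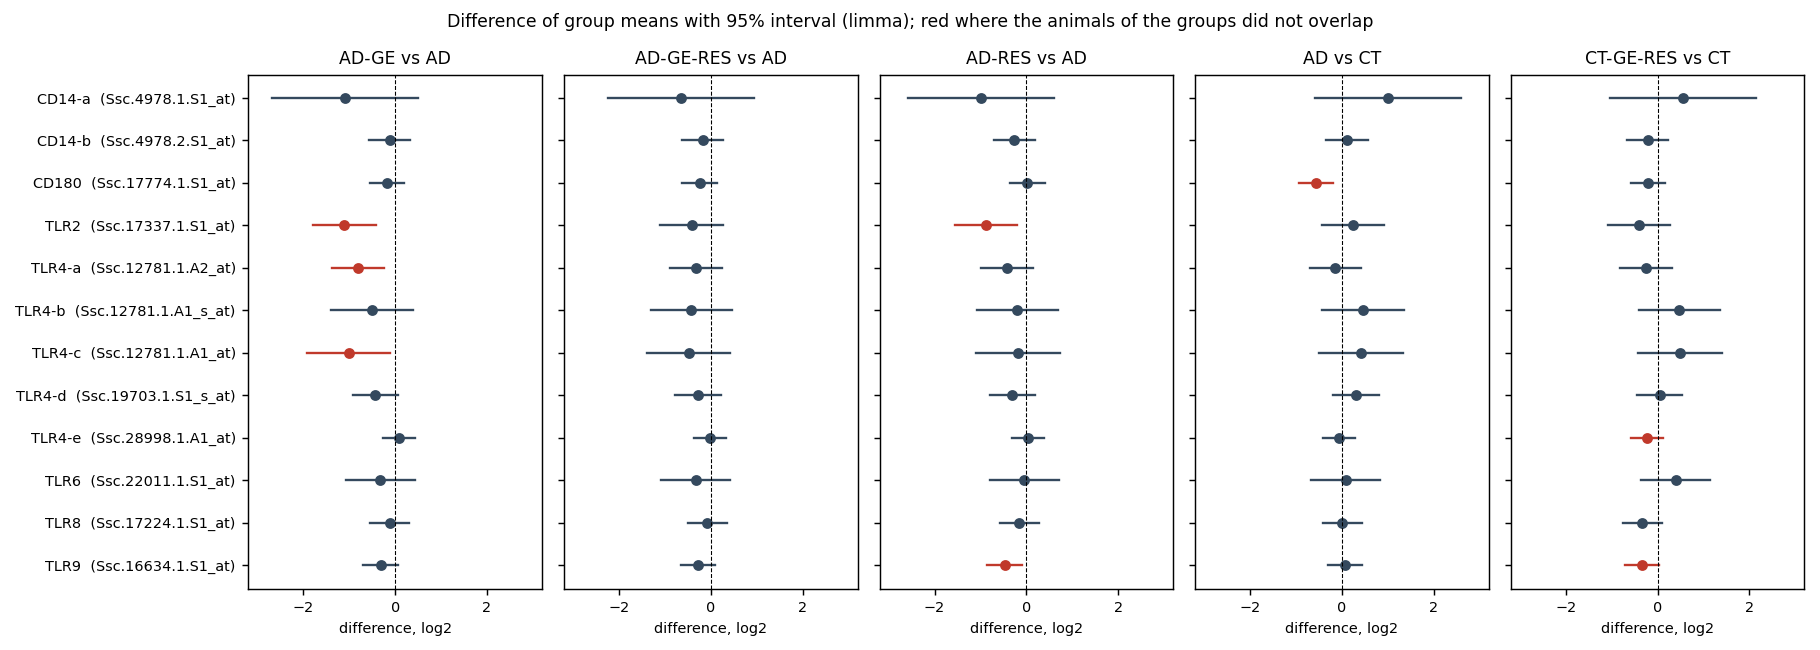
Differences in log2 intensity (x axis) with 95% intervals from limma for the 12 tested probe sets (rows) in the 5 comparisons (panels). Red marks the probe sets whose animals did not overlap between the groups, 3 of them in AD-GE against AD, and the intervals of CD14-a are the widest.

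TLR2, the receptor of bacterial lipoproteins, had the largest difference of the tested members in AD-GE against AD. Its probe set measured 7.67, 7.96, 7.89 and 8.38 in AD-GE, against 9.21, 9.10, 8.68 and 9.35 in AD. Every AD-GE animal lay below every AD animal. The difference was −1.11 (SE 0.33, 95% interval −1.79 to −0.42), or 2.15-fold, with an unadjusted p of 0.0029 and a limma adjusted p of 0.683. In AD-RES the animals measured 7.72, 8.01, 8.53 and 8.55, again all below AD, with a difference of −0.88 (SE 0.33, adjusted p 0.980). In AD-GE-RES they measured 9.95, 8.69, 7.74 and 8.28. The first female of AD-GE-RES held the highest TLR2 of all 24 pigs and the highest monocyte mean (0.57), and the group, with 7.74 at its lowest, overlapped with AD-GE and AD. The F test among the 3 supplemented atherogenic groups called no member (smallest adjusted p 0.813), with 0 under an unadjusted p of 0.05 (6.23% of all).

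In chow-fed pigs TLR2 measured 8.24, 8.40, 8.17 and 8.93 in CT-GE-RES, against 9.10, 9.14, 8.46 and 8.67 in CT. These groups overlapped, as did AD and CT, which averaged 9.08 ± 0.29 and 8.84 ± 0.33. The group means ran in the order AD, CT, AD-GE-RES, CT-GE-RES, AD-RES and AD-GE, and each neighbouring pair overlapped, with gaps of 0.18 to 0.24 that were smaller than the larger SD of the pair.

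TLR2 moved with the monocyte mean over the 24 arrays (Pearson r 0.79, Spearman rho 0.75, each n = 24; adjusted permutation p 2.1e-04 and 9.8e-04 over 42 relations; r 0.74 without the 2 arrays farthest from the median, and 0.78 after diet and sex were fitted). The monocyte mean of AD-GE lay below that of AD in every animal, by 0.51, and all 16 markers were lower. The exact permutation p was 0.0286 (two-sided, not adjusted for the number of such tests), the smallest that 4 against 4 animals can give. The differences of the 16 markers were uneven, from −1.30 for S100A9 to −0.003 for CD93. Of them 3 had an unadjusted limma p under 0.05 (3.3% of all probe sets were lower at that level). Summed intensities of the 16 markers were 11303 to 16774 in AD-GE and 18371 to 19367 in AD. The mean of the 8 neutrophil markers was also lower, at −0.24 ± 0.45 in AD-GE and 0.36 ± 0.56 in AD (difference −0.60, exact permutation p 0.143, two-sided), with 6 of 8 lower, among them LTF (−1.51), NPG4 (−1.32) and CHI3L1 (−1.05). S100A12 is in both marker lists. With the monocyte mean as a term in the fit, the TLR2 difference was −0.55 in AD-GE against AD (adjusted p 0.828) and −0.40 in AD-RES against AD (adjusted p 0.852). Without that term the AD-RES difference was −1.29 in females alone and −0.47 in males alone. In AD-RES the monocyte mean was 0.44 below AD (exact permutation p 0.286), and 14 of 16 markers were lower. This mean was −0.76 and −0.56 in the AD-RES females and 0.26 and 0.41 in the males, against 0.09 to 0.38 in AD. The part of monocyte and neutrophil number in the TLR2 values was not tested.

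**Figure D2:**
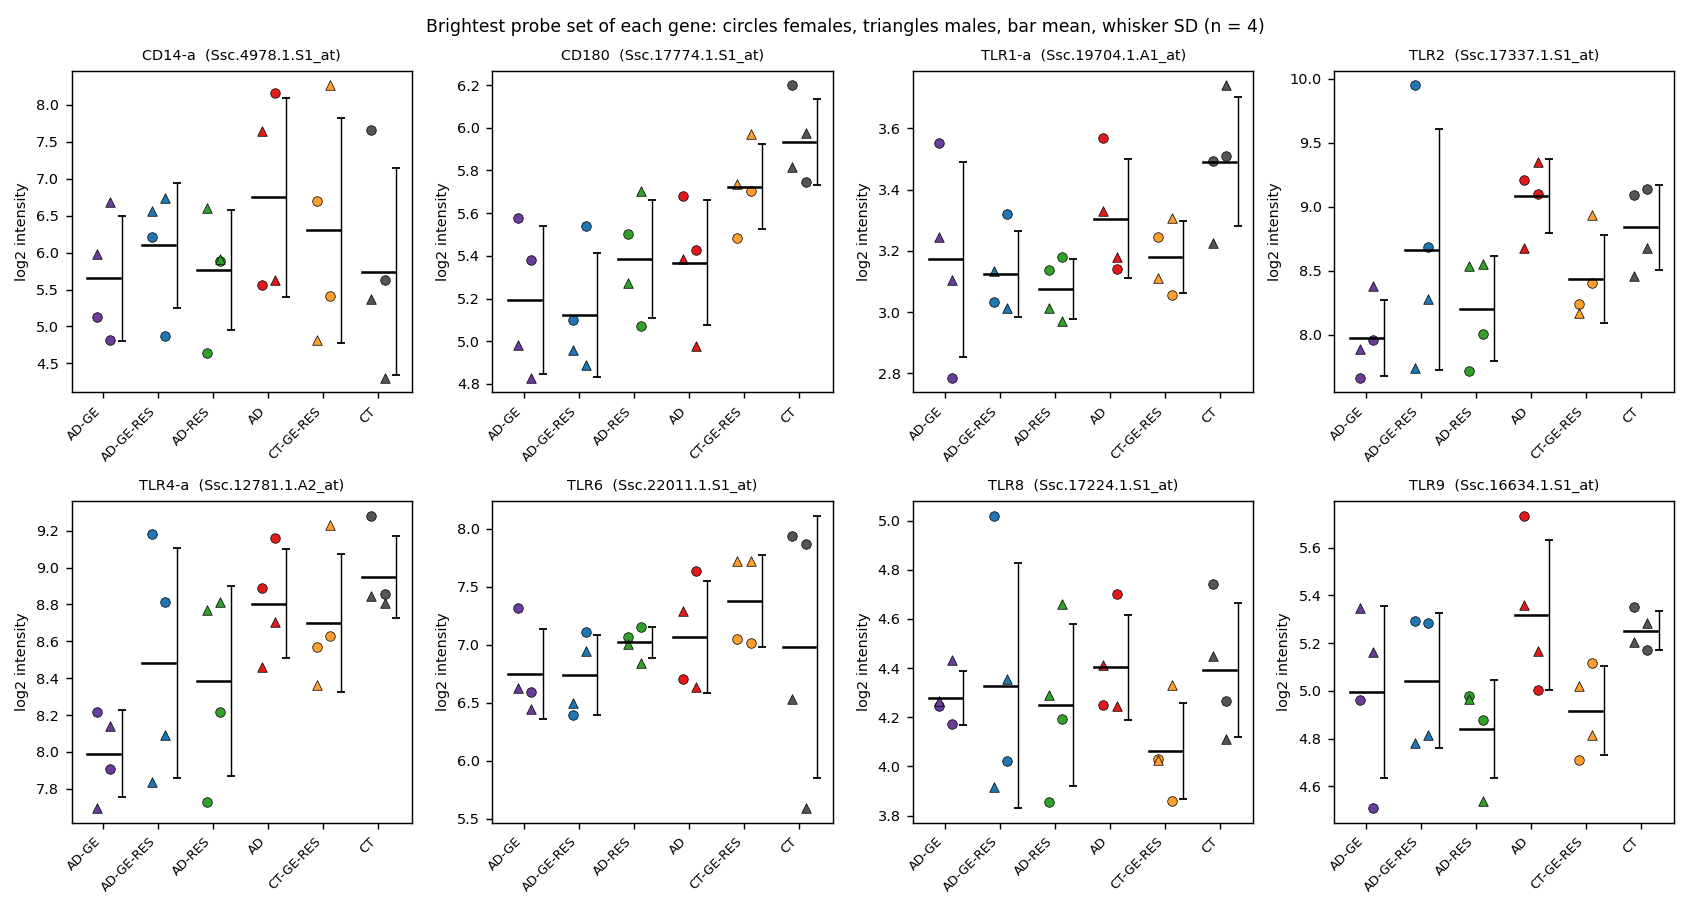
Log2 intensity (y axis) of the probe set with the highest mean for each of the 8 genes, by diet group (x axis), with circles for females, triangles for males, a bar for the mean and a whisker for the SD (n = 4). TLR2 in AD-GE (7.67 to 8.38) and AD (8.68 to 9.35) does not overlap, CD180 is high in both chow groups, and TLR6 in CT is split by sex.

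TLR4, the endotoxin receptor, was read by 5 probe sets, 2 of which separated AD-GE and AD. TLR4-a, with a mean of 8.55, measured 8.22, 7.91, 7.70 and 8.14 in AD-GE, against 8.89, 9.16, 8.46 and 8.71 in AD. The groups did not overlap, and the difference was −0.81 (SE 0.27, unadjusted p 0.0068, limma adjusted p 0.736). TLR4-c, with a mean of 5.40, measured 4.59, 4.35, 4.77 and 5.17 in AD-GE, against 5.85, 6.17, 5.73 and 5.20 in AD. Here too the groups did not overlap, but narrowly (5.17 against 5.20). The difference of TLR4-c was −1.02 (SE 0.44, limma adjusted p 0.804), or −1.54 in females alone and −0.50 in males alone. Over 24 alternative settings it ran from −1.54 to −0.45. The other TLR4 sets overlapped in this comparison. TLR4-b averaged 5.90 ± 0.25 in AD-GE and 6.41 ± 0.41 in AD. TLR4-d averaged 4.87 ± 0.30 in AD-GE and 5.31 ± 0.32 in AD, and TLR4-e 3.67 ± 0.15 in AD-GE and 3.58 ± 0.19 in AD.

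In the other groups TLR4-a measured 9.19, 8.82, 7.84 and 8.09 in AD-GE-RES and 7.73, 8.22, 8.77 and 8.82 in AD-RES, both overlapping with AD. It measured 8.57, 8.63, 8.36 and 9.23 in CT-GE-RES, against 9.28, 8.86, 8.85 and 8.81 in CT. The females held the higher values in AD-GE-RES and the males in AD-RES. The means ran in the order CT, AD, CT-GE-RES, AD-GE-RES, AD-RES and AD-GE, and every neighbouring pair overlapped. Averaged over the 4 atherogenic and the 2 chow groups, a comparison added after the values were seen, this set differed by −0.41 on the atherogenic diet (SE 0.17, adjusted p 0.249), or −0.27 with the ratio and the monocyte mean in the fit; 8 of the 16 atherogenic animals lay below all 8 chow animals.

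TLR4-e, whose mean of 3.58 was just inside the filter, measured 3.50, 3.35, 3.48 and 3.36 in CT-GE-RES, against 3.51, 3.77, 3.65 and 3.65 in CT. These animals did not overlap, although the difference was −0.22 (SE 0.17, unadjusted p 0.196, limma adjusted p 0.721). TLR4-b and TLR4-c had positive differences in CT-GE-RES against CT (0.47 and 0.49). The second male of CT was the lowest of all pigs for both (4.62 and 3.65) but not for TLR4-a (8.81).

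Like TLR2, TLR4-a followed the monocyte mean (r 0.80, rho 0.77, n = 24, adjusted permutation p 2.1e-04 and 4.2e-04, r 0.74 without the 2 farthest arrays and 0.86 after diet and sex were fitted). With the monocyte mean in the fit its difference in AD-GE against AD was −0.31 (adjusted p 0.849), and that of TLR4-c was −0.52 (adjusted p 0.901). TLR2 and this TLR4 set correlated with each other (r 0.84, rho 0.85, n = 24), and they share arrays and cells. Among the TLR4 probe sets themselves the 10 pairwise r values ran between 0.03 and 0.92, so sets for 1 gene ranked the animals differently. The low values were those of TLR4-e, the set just inside the filter (r 0.03 to 0.21 with the other sets). Pairs without TLR4-e had r of 0.48 to 0.92.

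**Figure D3:**
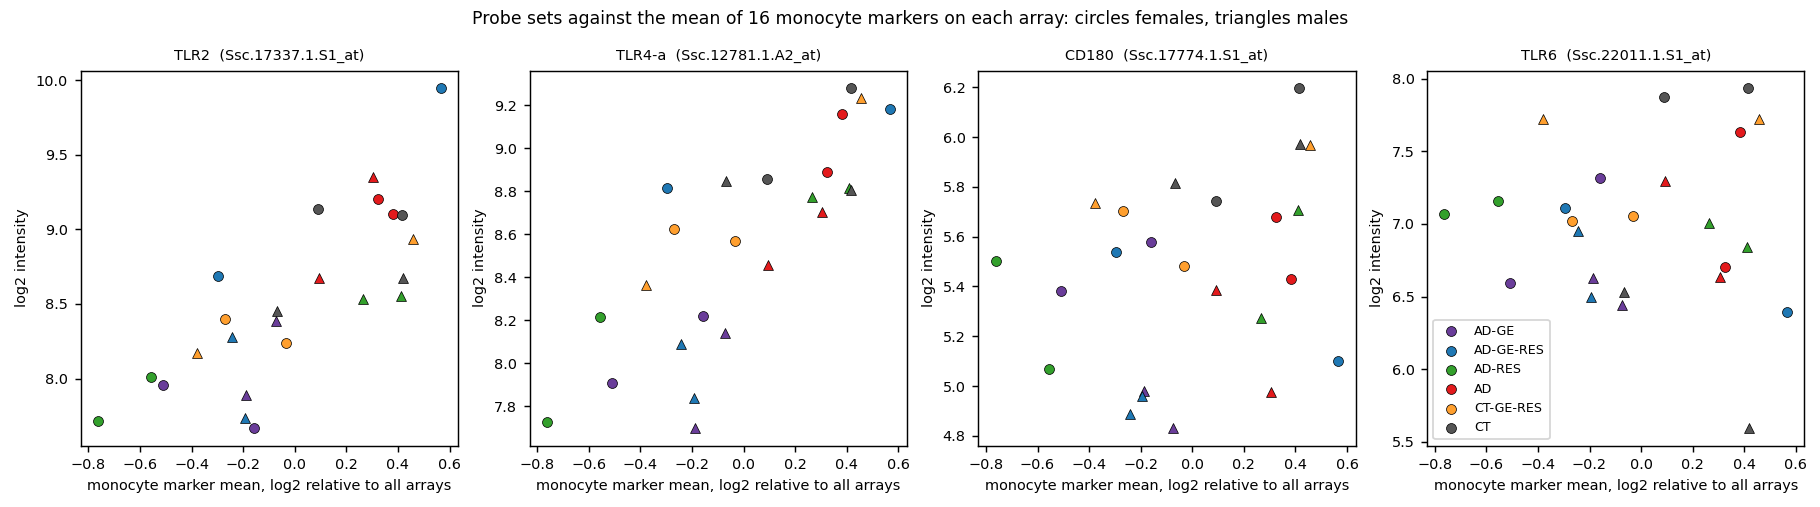
Log2 intensity of TLR2, TLR4-a, CD180 and TLR6 (y axes) against the mean of 16 monocyte markers on the same array, log2 relative to all arrays (x axis), for 24 animals coloured by diet, with circles for females and triangles for males. TLR2 and TLR4 climb with the monocyte mean (r 0.79 and 0.80), and CD180 and TLR6 less or not (r 0.28 and −0.04).

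CD14, the endotoxin co-receptor of monocytes, was measured by 2 probe sets that correlated little over the arrays (r 0.06, rho 0.21, n = 24). CD14-a varied widely inside every group, with a residual SD of 1.19 against a median of 0.22 for all tested probe sets. It measured 5.13, 4.82, 5.98 and 6.69 in AD-GE pigs, 6.20, 4.87, 6.57 and 6.74 in AD-GE-RES, 4.65, 5.88, 6.60 and 5.92 in AD-RES, and 5.57, 8.16, 7.64 and 5.63 in AD. It measured 6.70, 5.41, 4.82 and 8.27 in CT-GE-RES, against 7.66, 5.63, 5.38 and 4.31 in CT. All neighbouring groups overlapped. The differences from AD were −1.10 in AD-GE, −0.99 in AD-RES and −0.65 in AD-GE-RES. They were 1.01 in AD against CT and 0.56 in CT-GE-RES against CT, with limma adjusted p-values of 0.787 to 1.00.

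The values of CD14-a were lower on arrays with a higher 3'/5' ratio (r −0.79, rho −0.83, n = 24, adjusted permutation p 2.8e-04 and 4.2e-04 over 42 relations, r −0.75 without the 2 farthest arrays and −0.88 after diet and sex were fitted). With the ratio in the fit the difference was −0.08 in AD against CT and −0.51 in CT-GE-RES against CT, the opposite sign in both. Without the second male of CT the difference in CT-GE-RES against CT was −0.007, and without the second male of CT-GE-RES it was −0.08. The ratio was lower in AD than in CT by 0.96 and lower in CT-GE-RES than in CT by 0.94 (exact permutation p 0.143 each). The part of the ratio in the CD14-a values was not tested beyond these fits. The other CD14 set, CD14-b, showed no relation to the ratio past the threshold (r 0.12, adjusted permutation p 0.619, n = 24) and followed the monocyte mean (r 0.61, rho 0.58, adjusted permutation p 0.0080 and 0.0148, r 0.57 without the 2 farthest). Its group means lay between 5.24 ± 0.22 in CT-GE-RES and 5.57 ± 0.20 in AD.

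A like relation with the ratio was found for 3 TLR4 sets, namely TLR4-b (r −0.70, rho −0.70), TLR4-d (r −0.62, rho −0.63) and TLR4-c (r −0.56, rho −0.55), with adjusted permutation p-values of at most 0.021 (n = 24 each). Without the 2 farthest arrays r was −0.57, −0.54 and −0.40. All 3 also moved with CD14-a (r 0.86 for TLR4-b, 0.90 for TLR4-d and 0.75 for TLR4-c, n = 24 each). TLR4-a and TLR2 showed no such relation past the threshold (r 0.15 and 0.18, adjusted permutation p 0.519 and 0.452), and with the ratio in the fit their differences in AD-GE against AD were −0.82 and −1.12. TLR4-d also followed the monocyte mean (r 0.65, rho 0.64, adjusted permutation p 0.0049 and 0.0069, n = 24). TLR4-b (r 0.45, rho 0.57) and TLR4-c (r 0.48, rho 0.59) passed the threshold with that mean by rho only (adjusted permutation p 0.018 and 0.014).

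**Figure D4:**
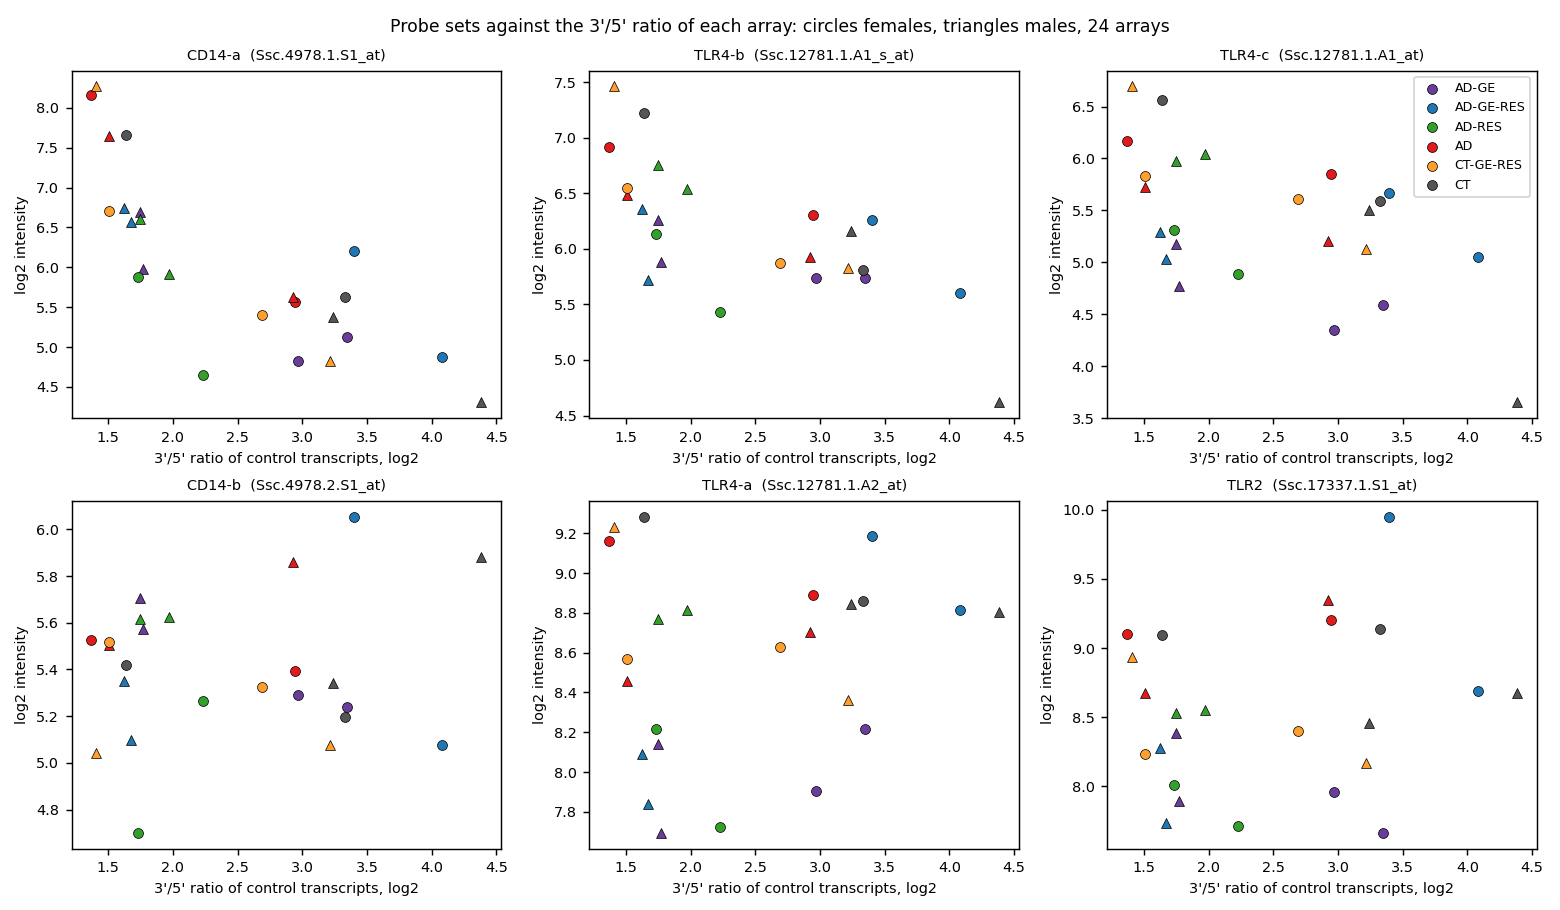
Log2 intensity of 6 probe sets (y axes) against the 3'/5' ratio of control transcripts on the same array, log2 (x axis), for 24 animals coloured by diet, with circles for females and triangles for males. In the top row CD14-a and 2 TLR4 sets decline as the ratio grows (r −0.79, −0.70 and −0.56), and in the bottom row the other CD14 set, TLR4-a and TLR2 do not (r 0.12, 0.15 and 0.18).

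CD180, the TLR4 relative without a signalling domain, had its highest values in chow-fed pigs, although it was called in none of the study's 5 comparisons. Its probe set measured 5.68, 5.43, 5.39 and 4.98 in AD, against 6.20, 5.74, 5.81 and 5.97 in CT. Every AD animal lay below every CT animal, with a difference of −0.56 (SE 0.18, 95% interval −0.94 to −0.19, 1.48-fold, unadjusted p 0.0052), and the limma adjusted p was 0.757. The supplemented atherogenic groups stood near AD, with 5.58, 5.38, 4.98 and 4.83 in AD-GE pigs, 5.10, 5.54, 4.96 and 4.89 in AD-GE-RES pigs, and 5.50, 5.07, 5.27 and 5.71 in AD-RES pigs. CT-GE-RES measured 5.48, 5.70, 5.74 and 5.97. The means ran in the order CT, CT-GE-RES, AD-RES, AD, AD-GE and AD-GE-RES, so both chow groups headed the list. The gap between CT-GE-RES and AD-RES was 0.34, more than the larger SD of that pair (0.28), although their animals overlapped.

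Over all animals CD180 had a lowest value of 4.83, a median of 5.33 and a highest value of 5.71 in the 16 atherogenic pigs, against 5.48, 5.78 and 6.20 in the 8 chow pigs. Of the 16 atherogenic pigs 11 lay below every chow pig. The contrast of the 4 atherogenic groups with the 2 chow groups, added after these values were seen and open to that choice, was −0.56 (SE 0.11, 95% interval −0.79 to −0.33, unadjusted p 5.4e-05). Its adjusted p was 0.0615, which missed the threshold; 0 of 17999 probe sets were called and the smallest adjusted p among them was 0.0606. At an unadjusted p of 0.05 the contrast held 2 of 12 members, CD180 and TLR4-a, beside 15.2% of all. With 1 array left out at a time, 22 of 24 fits still missed the threshold, with an adjusted p of up to 0.147. The adjusted p was 0.0477 without the first female of CT and 0.0156 without the second female of AD-GE-RES. Of 15 other settings 10 also missed the threshold, and with the monocyte mean in the fit the adjusted p was 0.0407. In males alone the contrast was −0.75 (adjusted p 0.0246) and in females alone −0.37 (adjusted p 0.304). The sexes were not tested against each other here, and how many of all probe sets these alternative fits called is not given.

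CD180 showed no relation past the threshold to the 3'/5' ratio (r 0.30, adjusted permutation p 0.239, n = 24) or the monocyte mean (r 0.28, adjusted permutation p 0.269). Of 16 B cell markers 4 were measured above the low-signal limit, namely BLNK, CD79B, JCHAIN and SPIB, and CD180 had an r of 0.47 (rho 0.46, adjusted permutation p 0.059 and 0.056) with their mean. Their mean was −0.03 ± 0.53 in AD and 0.22 ± 0.20 in CT (exact permutation p 0.486), with summed intensities of 2037 to 5288 in AD and 2909 to 5077 in CT. In the contrast of the 4 atherogenic with the 2 chow groups 3 of the 4 B cell markers were lower (median −0.31), 1 at an unadjusted limma p under 0.05. Of 9 platelet markers 8 were lower in that contrast (median −0.74), 4 at that level (15.2% of all probe sets), and their part was not tested. With the B cell mean in the fit the contrast of the diets was −0.50 (adjusted p 0.119). LY86, which pairs with CD180, averaged 9.58 ± 0.27 in AD and 9.37 ± 1.26 in CT, and over all groups its diet contrast was −0.07 (SE 0.25). In CT it measured 10.54, 9.92, 9.43 and 7.61, the last in the second male described above, so the CT mean leans on that array.

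TLR6, which pairs with TLR2 to read diacylated lipoproteins, was the only tested member with a called effect, an interaction of sex and diet. In CT its probe set measured 7.94 and 7.87 in females but 6.53 and 5.59 in males. In CT-GE-RES the order was turned, with 7.05 and 7.02 in females and 7.73 and 7.72 in males. The difference of CT-GE-RES from CT was thus −0.87 in females and 1.66 in males. The interaction of sex with CT-GE-RES against CT, tested after these values were seen, was −2.53 (SE 0.49, limma adjusted p 0.0409, over a fit of 12 diet and sex groups). In that test 52 of 17999 probe sets were called (0.289%), and 1 of the 12 members. It rests on 2 animals for each diet and sex, and leaving out any 1 of 7 of the 8 animals ended the call (adjusted p up to 0.165); without the first male of CT the interaction was stronger, with an adjusted p of 0.0043. With array weights the adjusted p was 0.0701, and with no pooling of variance over probe sets 0.104.

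TLR6 in AD measured 6.70 and 7.64 in females and 7.29 and 6.63 in males, so against CT it differed by −0.73 in females and 0.90 in males. That interaction was −1.64 (SE 0.49, adjusted p 0.163; 0.117% of all called), and −2.11 with an adjusted p of 0.0250 without the first male of CT. The low value of the second male of CT came on the array with the highest 3'/5' ratio (4.39), the highest neutrophil and erythroid means and the lowest T cell mean. Without that animal the interaction with CT-GE-RES against CT was −2.06 (adjusted p 0.124), and the part of the array's quality and cell makeup was not tested. TLR6 showed no relation past the threshold to the ratio over all arrays (r −0.34, adjusted permutation p 0.193, n = 24), and with the ratio in the fit the interaction with CT-GE-RES against CT was −2.30 (adjusted p 0.0469). In the other groups TLR6 lay between 6.44 and 7.32 in AD-GE, 6.40 and 7.11 in AD-GE-RES, and 6.84 and 7.15 in AD-RES, which had the smallest SD (0.13). Between females and males as such no member was called (0 of 12 called and 0 at an unadjusted p under 0.05, beside 0.267% of all called and 10.3% at that level).

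TLR1, the other partner of TLR2 and the neighbour of TLR6 in the gene order of Sscrofa11.1, had 2 probe sets below the filter, with means of 3.23 and 2.81, and was not tested. The brighter set averaged between 3.08 ± 0.10 in AD-RES and 3.49 ± 0.21 in CT. The dimmer set passed the threshold with the monocyte mean (r 0.50, rho 0.57, n = 24, adjusted permutation p 0.0489 and 0.0163, r 0.43 without the 2 farthest arrays). The brighter set did not (r 0.32, adjusted permutation p 0.210). Signals this low do not show whether TLR1 RNA was present.

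TLR9, the sensor of CpG DNA, measured 4.98, 4.88, 4.96 and 4.54 in AD-RES, against 5.73, 5.00, 5.36 and 5.17 in AD. The groups did not overlap, narrowly, and the difference was −0.48 (SE 0.18, unadjusted p 0.0147, limma adjusted p 0.980). It measured 4.71, 5.12, 5.02 and 4.81 in CT-GE-RES, against 5.35, 5.17, 5.20 and 5.28 in CT, again with no overlap and a difference of −0.34 (SE 0.18, adjusted p 0.700). TLR9 showed no relation past the threshold to the monocyte mean (r 0.29, adjusted permutation p 0.245, n = 24) or to the ratio (r 0.33, adjusted permutation p 0.20).

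TLR8, the RNA sensor of the same compartment, kept group means within 4.06 ± 0.20 in CT-GE-RES and 4.40 ± 0.21 in AD, and no pair of compared groups separated. It followed the monocyte mean (r 0.67, rho 0.65, n = 24, adjusted permutation p 0.0018 and 0.0060, r 0.56 without the 2 farthest arrays) and ran against the B cell mean (r −0.50, rho −0.56, adjusted permutation p 0.0489 and 0.0187, r −0.45 without the 2 farthest).

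The partners of these receptors were read from 8 lists of pathway genes, 63 genes in all that passed the filter, each by its brightest probe set; none was called in any comparison. LY96, the endotoxin-binding partner of TLR4, measured 9.28, 9.40, 9.63 and 9.79 in AD-GE, against 9.97, 10.11, 9.85 and 10.03 in AD. It thus separated the same groups as TLR4-a, with a difference of −0.47 (SE 0.23, limma adjusted p 0.820). LY96 was named as the partner of a member, with its values in view. MYD88, the adaptor shared by most Toll-like receptors, averaged 5.16 ± 0.14 in AD-GE and 5.40 ± 0.26 in AD. UNC93B1, which carries TLR8 and TLR9 to endosomes, averaged 5.40 ± 0.12 in AD-GE and 5.45 ± 0.33 in AD.

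In AD-GE against AD 51 of the 63 pathway genes were lower (81.0%, median −0.19), with 7 lower and 0 higher at an unadjusted p under 0.05 (3.3% and 2.79% of all probe sets). The smallest p belonged to SOD2, a mitochondrial antioxidant enzyme induced by NF-kB, at 10.16 in AD-GE and 11.08 in AD (difference −0.91, SE 0.20, adjusted p 0.529). DDX58, the cytosolic RNA sensor RIG-I, stood at 5.48 in AD-GE and 6.46 in AD (difference −0.98, SE 0.31). Upward, IRAK1, a kinase downstream of MYD88, and MAP3K7, the kinase TAK1, differed by 0.24 and 0.26. All 7 transcription factors tested and all 5 other innate receptors were lower, with medians of −0.35 and −0.89. The monocyte markers, with 16 of 16 lower, were lower in the same comparison, and their part was not tested. The lists share genes: TREM1 is in the monocyte markers and the other innate receptors, and ITGAM in the monocyte markers and the co-receptors.

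In AD-RES against AD 50 of the 63 were lower (79.4%, median −0.21), with 11 lower and 1 higher at an unadjusted p under 0.05 (2.65% and 1.8% of all). SOD2 again had the smallest p, at 10.45 in AD-RES and 11.08 in AD, followed by IRF3, the interferon regulatory factor, at 7.93 in AD-RES and 8.34 in AD. MAPK9, a JNK kinase, and MAP3K7 differed by 0.33 and 0.18. Of 17 induced targets 15 were lower (median −0.56), and of 8 adaptors and proximal kinases all 8 (median −0.22). In AD-GE-RES against AD 38 of 63 were lower (60.3%), with 2 lower and 1 higher at that level (1.25% and 1.15% of all). SOCS3, a brake on cytokine signalling, and DDX58 differed by −0.39 and −0.71, and MAPK9 and MAP3K7 by 0.34 and 0.22.

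In AD against CT the lists leaned the other way, with 24 of 63 lower (38.1%, median 0.10) and 7 higher and 4 lower at an unadjusted p under 0.05 (3.25% and 3.13% of all). CXCL2, a neutrophil-attracting chemokine, stood at 10.43 in AD and 8.59 in CT (difference 1.84, SE 0.66, limma adjusted p 0.757), and SOCS1 was 0.63 higher. MAPK9 and BTK, a kinase of B cells and myeloid cells, differed by −0.41 and −0.34. Of 17 induced targets 15 were higher (median 0.33), as were 6 of 7 negative regulators (median 0.26). In the same comparison the 3'/5' ratio was 0.96 lower in AD, and the T cell mean was −0.03 ± 0.26 in AD and −0.42 ± 0.49 in CT (exact permutation p 0.171), with 12 of 13 markers higher. The CT group holds the second male described above, and the part of these measures in the list values was not tested. AD is the reference of the supplement comparisons above, so these share its 4 animals. In CT-GE-RES against CT 34 of 63 were lower, with 2 higher and 0 lower at that level (3.87% and 2.93% of all). SIGIRR, an inhibitor of Toll-like receptor signalling, and the kinase MAP2K6 differed by 0.42 and 0.51, and LYN and BPI by −0.45 and −0.27. Beside them the neutrophil mean was −0.36 ± 0.19 in CT-GE-RES and 0.44 ± 0.93 in CT (exact permutation p 0.0286). In CT it was 1.83 in the second male and −0.15 to 0.05 in the other pigs. The T cell mean was 0.24 ± 0.21 in CT-GE-RES and −0.42 ± 0.49 in CT (exact permutation p 0.0857), with 13 of 13 markers higher. Of 6 erythroid markers 5 were lower (median −1.09). The part of these measures was not tested. In the contrast of the 4 atherogenic with the 2 chow groups BTK and TBK1 differed by −0.38 and −0.30, and SOCS1 and NFKBIA by 0.48 and 0.44 (adjusted p 0.0748 to 0.171).

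**Figure D5:**
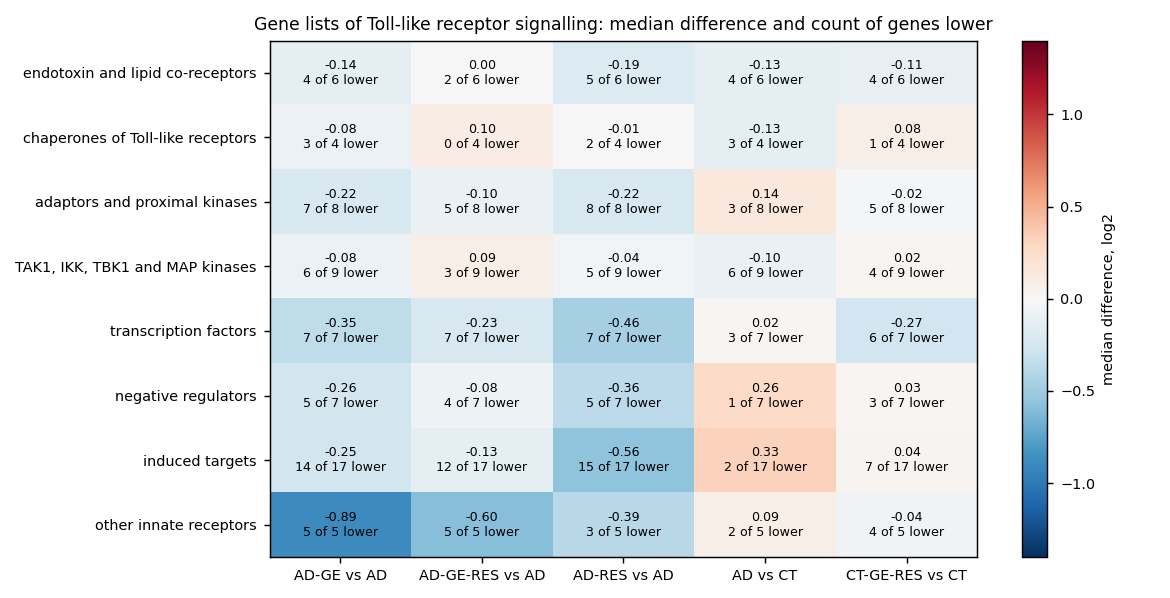
Median log2 difference (colour and upper figure in each cell) and number of genes lower for 8 lists of pathway genes (rows) in the 5 comparisons (columns). In AD-GE and AD-RES against AD all 8 list medians are below 0, and in AD against CT the induced targets and negative regulators have the highest medians (0.33 and 0.26).

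Among 6026 other genes, the patterns most like that of each receptor were found by Pearson r over the 24 arrays. TLR2 was followed most closely by SOD2 and VNN2 (r 0.91 each), then CSTB, EMILIN2 and ACSL1 (r 0.88 to 0.89). TLR4-a was followed by TSPAN13, ACVR1B, SIRPA, ATP6V1B2 and CCPG1 (r 0.86 to 0.89), and CD14-a by NCF4 (r 0.92), ASAH1, SLA-DMB, ARPC4 and RBPJ (r 0.86 to 0.88). CD180 was most like STAT2 (r 0.81), then COPS7A, FKBP15, SLC25A38 and PDZD11 (r 0.75 to 0.76). TLR6 was most like SLA-DQB1, a class II histocompatibility gene (r 0.88, and 0.94 after diet and sex were fitted), then RNF114, VDAC2, PSMD5 and FBXL5 (r 0.79 to 0.84). TLR8 was most like THBD (r 0.77), then SNX24, DEGS1, ATP1B1 and LGALS3 (r 0.74 to 0.75). TLR9 had no close match, with PADI2, PPP3CA, CIDEA, SLC35A4 and AGPAT2 at r 0.62 to 0.66. These values describe 24 arrays that share their spread in 3'/5' ratio and cell makeup.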

How the data were processed

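One intensity per probe set and array was deposited by the authors on a linear scale. The tools RMA and GCOS are named per the submitters' processing notes; their versions and roles are not given in the sources used here. Intensities were taken to log2. The 124 control probe sets and the lowest 25% of the other 23999 by mean were left out. Gene names came from the platform annotation. The members and gene lists were chosen with earlier results of these data known. limma 3.58.1 in R 4.3.3 fitted 6 diet means and sex to 24 arrays (17 residual and 3.60 prior degrees of freedom), with two-sided tests and Benjamini-Hochberg adjustment over 17999 probe sets. The interactions with sex used 12 diet and sex groups. P-values measure the spread between animals, and the number of arrays limits precision. Relations over arrays used 100000 permutations (Python 3.11.15, numpy 2.4.6). Exact permutation p-values for the ratio and the marker means were not adjusted for the number of such tests. The method was tested on simulated data. Named were every member, the 5 genes most like each, and in each comparison the 2 pathway genes with the smallest p in each direction. Where a gene had several probe sets, that with the highest mean stood for it. Alternatives were other filters, normalizations, variance settings, covariates, each sex alone and each array left out.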

Additional observations from a re-analysis of the deposited data

Results flagged for a closer look

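TLR4-a in the first female of CT (9.28) stood apart from the other 3 animals of its group (8.81 to 8.86). It was the 1 such sample among 84 groups of 4, where chance gives about 1 in 20.

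In 5 of 70 contrasts of a member within each sex, every female moved one way and every male the other (7.14% of the members' contrasts, beside 8.1% of the contrasts of all 23999 probe sets other than controls). TLR6 in CT-GE-RES against CT differed by −0.87 in females and 1.66 in males, and the interaction of −2.53, added after the values were seen, had a limma adjusted p of 0.0409. TLR6 in AD against CT differed by −0.73 in females and 0.90 in males (interaction adjusted p 0.163). TLR4-a in AD-RES against AD differed by −1.05 in females and 0.21 in males, with an interaction of −1.27 (SE 0.36, adjusted p 0.202), also added after the values were seen; with the monocyte mean in the fit the interaction was −0.45. For AD-RES against AD, TLR4-b differed by −0.83 in females and 0.44 in males, and TLR4-c by −0.91 in females and 0.54 in males (interaction adjusted p 0.562 for TLR4-b and 0.445 for TLR4-c). Those 3 probe sets read 1 gene. The interaction of sex with AD-RES against AD called 0 of 17999 probe sets, and 1 member had an unadjusted p under 0.05 (12.2% of all).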

How the results depend on the processing

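Of 346 counts of called members under alternatives 325 stayed within 1.5 times the reported count, and of 467 differences 437 kept their direction and their side of the threshold. All reported counts but that of sex by CT-GE-RES against CT were 0, and a difference counted as kept whatever its size. The share of all probe sets called under each alternative is not given here, so a member called there is not shown to stand out. TLR2 in AD-GE against AD, kept in all 24 settings, ran from −1.34 to −0.55. CT-GE-RES against CT called 1 member (TLR6) in males alone. The diet contrast of 4 against 2 groups called 1 (CD180) in place of 0 with the lowest 50% of probe sets left out (−0.56), quantile normalization once more (−0.57), the monocyte mean (−0.54), the ratio and monocyte mean (−0.51) or males alone (−0.75), and 0 to 1 with arrays left out (−0.62 to −0.50). Sex by AD against CT called 0 to 1 with arrays left out (TLR6 −2.11 to −1.17). Sex by CT-GE-RES against CT called 0 in place of 1 under quantile normalization once more (−2.42), array weights (−2.53), no variance moderation (−2.53) and arrays CT 4 and AD-GE-RES 1 left out (−2.06), and 0 to 2 with arrays left out in turn (TLR6 −2.06 or further from 0, TLR4-c −2.62 to −0.77), where fewer animals were fitted. CD14-a turned in AD against CT with the ratio (−0.079) or ratio and monocyte mean (−0.112) in the fit, in AD-GE-RES against AD with both (0.279) or in males alone (0.019), and in CT-GE-RES against CT with the ratio (−0.509), both (−0.147), arrays CT 4 and AD-GE-RES 1 left out (−0.0146), females alone (−0.590) and with arrays left out in turn (−0.080 to 1.29). The cause was not tested. No paired analysis was possible because replicate numbers follow the order of the arrays and name no shared litter or day.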
